A study of Mus musculus with 6 samples.

Results

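Glutathione, peroxidase and thioredoxin genes were followed in mouse testis as all array probes whose single platform gene symbol belongs to the Gpx, Gst, Sod, Prdx or Txn families or is Gclc, Gclm, Gss, Gsr or Cat. This took 55 probes for 51 genes, out of 14411 probes for 13840 genes with 1 symbol and 33012 probes in all; the rule reads gene names and no measured value. A probe that lists both Gsta2 and Gsta1 carries several symbols and was not taken. By role, the genes were 4 enzymes of glutathione synthesis and recycling, 8 glutathione peroxidases, 15 glutathione transferases, 4 superoxide dismutases and catalase, 3 peroxiredoxins, 6 thioredoxins with their reductases and inhibitor, and 11 other proteins with a thioredoxin domain or name.

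Whole testes of 6 adult male C57BL/6J mice, 10 to 12 weeks of age, were each hybridised to 1 array, and the question was how loss of Abcg8, and ezetimibe given on top of it, bear on testis gene expression. There were 3 groups of 2 mice: Abcg8 knockouts whose chow held 0.005% ezetimibe, Abcg8 knockouts fed plain chow, and wild-type mice fed plain chow. Abcg8 encodes one of the partners of the sterol exporter of liver and gut, and ezetimibe blocks sterol uptake from the gut. The labels name neither the altered part of the gene nor whether the mice were littermates.

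Glutathione is a small thiol that cells make from glutamate, cysteine and glycine and keep reduced with NADPH. Peroxidases spend it to remove hydrogen peroxide and lipid peroxides, and transferases join it to reactive compounds. Thioredoxins form a parallel system that feeds the peroxiredoxins, and developing sperm carry their own versions of several of these proteins, among them Gpx4, which hardens into the sheath of the sperm midpiece.

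The Abcg8 probe had normalised log2 signals of 14.42 and 14.40 on the arrays of ezetimibe-fed knockout-labelled mice and 14.04 and 14.35 on the knockout-labelled arrays, against 10.34 and 10.29 on the wild-type-labelled arrays. It was thus brighter on every array labelled knockout, by 3.88 ± 0.13 (log2, SE) between the chow-fed groups. The sources used here do not give the stretch of the transcript that the probe reads. The groups are therefore called by their labels, and every direction rests on them. Wild-type-labelled replicate 2 stood apart: its median raw signal was 258, against 515 to 678 on the other 5 arrays, and it lay at 53.6 on the first principal component, against -17.3 to 0.73 on the others. Between 15371 and 16632 probes were detected on an array. Testis identity was checked on marker genes: 12 of 12 spermatocyte, 13 of 13 elongating spermatid and 9 of 9 Leydig cell markers on the array were detected well enough to be tested, against 4 of 12 epididymis markers, of which 6 were detected on no array. Of Sertoli cell markers 11 of 14 could be tested, and of spermatogonia markers 8 of 10.

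A probe was taken as detected at a deposited signal-to-noise of at least 3, and it was tested when some group detected it on both its arrays. Of the 55 member probes 48, for 44 genes, met this, and 41 were detected on all 6 arrays. The 7 that were left out stood for Gpx2, Gpx5, Gstp3, Cat, Txnrd1, Txnrd2 and Txnl1. No member was below the limit on both arrays of 1 group and above it on both arrays of another. Txnrd1, the cytosolic thioredoxin reductase, gave a signal-to-noise of 0.99 and 0.79 in ezetimibe-fed knockout-labelled testes, -0.02 and 0.27 in knockout-labelled testes and 0.19 and -0.14 in wild-type-labelled testes. Its mitochondrial counterpart Txnrd2 reached 3.47 on 1 ezetimibe array and 1.14 to 2.32 on the other 5. Neither probe was well above background on both arrays of any group, while Txnrd3, the thioredoxin glutathione reductase best known from testis, had a signal-to-noise of 75.1 to 110 on the 6 arrays. Catalase, which breaks down hydrogen peroxide in peroxisomes, was read at 3.76 and 1.25 in ezetimibe-fed knockout-labelled testes, 5.30 and 1.40 in knockout-labelled testes, and 2.52 and 2.94 in wild-type-labelled testes. In both knockout-labelled groups only 1 of the 2 arrays detected it, and neither wild-type-labelled array did. Gpx5, the secreted peroxidase of the epididymis, passed the limit on 1 wild-type-labelled array at 3.12 and lay between -2.12 and 2.86 on the others.

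**Figure D1:**
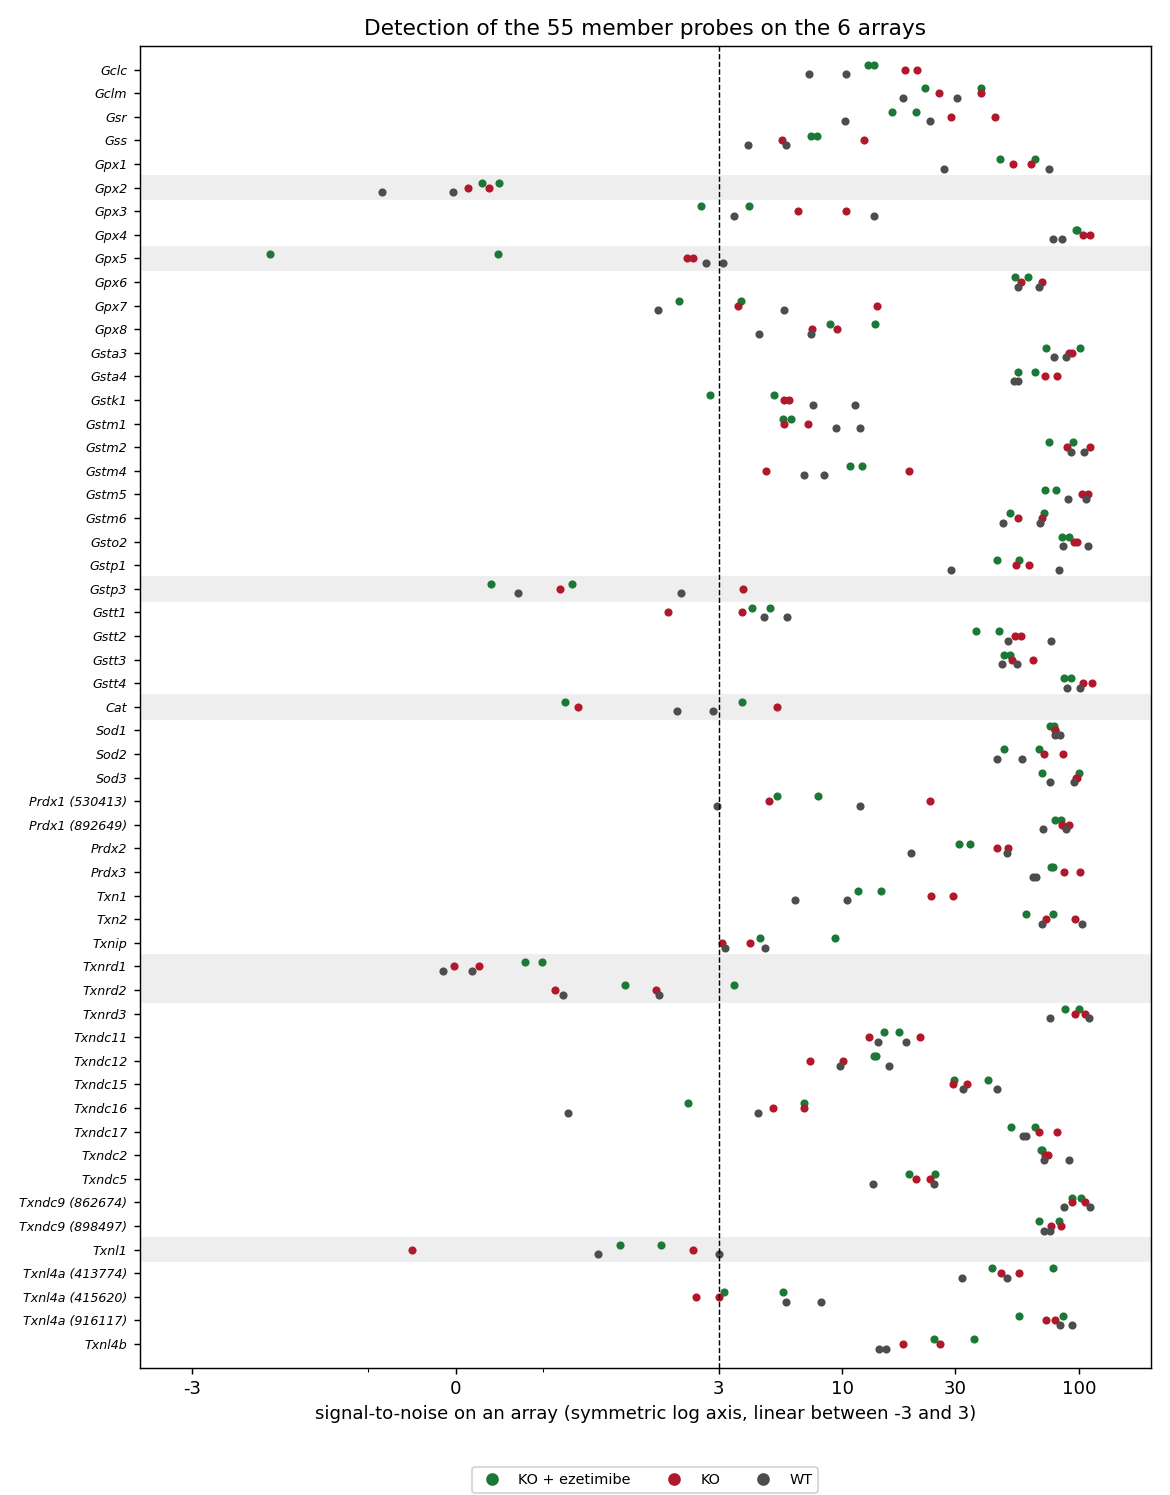
Signal-to-noise of the 55 member probes on each of the 6 arrays (horizontal symmetric log axis, linear at the low end; numbers after a name are probe identifiers). Points are arrays, coloured by group, the dashed line marks the limit of 3, and grey bands mark the 7 probes that were not tested; most of the other points lie well to the right of the line.

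The upstream windows of these genes are shown because many of them are textbook targets of NFE2L2, the transcription factor of the oxidative stress response, which binds the antioxidant response element. RefSeq windows of GRCm38.p6, 250 bases before to 50 bases after a gene's start, were matched for 44 of the 51 genes, with 59 windows. The letters TGACNNNGC were looked for on both strands; they can overlap the AP-1 letters TGANTCA, as in the Prdx1 match alone. At least 1 match was present for 9 of the 44 genes (20.5%), and for 3781 of 27025 genes with a window (14.0%). Those 27025 genes had 32851 windows, and a gene with more windows has more room for a match. The letters CCAAT, also looked for on both strands, were present for 26 of the 44 genes (59.1%) and 11096 of the 27025 (41.1%). A match is a run of letters and not a measured binding site. Each line gives 10 bases on either side of the match where the window allowed it, 5′ to 3′ on the strand that reads TGAC, with the match in capitals:
Gsta3, chr1:21240454-21240482, + strand: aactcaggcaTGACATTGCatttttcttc
Gstm5, chr3:107895802-107895830, + strand: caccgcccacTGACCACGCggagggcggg
Gclm, chr3:122245413-122245441, - strand: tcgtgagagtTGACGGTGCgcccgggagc
Prdx1, chr4:116685456-116685484, - strand: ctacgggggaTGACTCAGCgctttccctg
Txnrd1, chr10:82859104-82859132, - strand: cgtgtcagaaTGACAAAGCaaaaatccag
Txndc5, chr13:38528034-38528062, - strand: gcctcgccgcTGACGTGGCgctagccgcc
Txndc11, chr16:11134755-11134782, - strand: gtggaaggcTGACGCGGCcgcgagtgct
Sod1, chr16:90220696-90220724, - strand: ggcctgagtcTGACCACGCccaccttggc
Txndc2, chr17:65639941-65639969, - strand: ctttgaacctTGACCTAGCctagctgtgt

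The whole window of Gsta3 is given as well, because its probe had the lowest p of the members between the chow-fed groups. The match, in capitals, starts at position -121 relative to the gene's start:
Gsta3 window, chr1:21240335-21240634, + strand: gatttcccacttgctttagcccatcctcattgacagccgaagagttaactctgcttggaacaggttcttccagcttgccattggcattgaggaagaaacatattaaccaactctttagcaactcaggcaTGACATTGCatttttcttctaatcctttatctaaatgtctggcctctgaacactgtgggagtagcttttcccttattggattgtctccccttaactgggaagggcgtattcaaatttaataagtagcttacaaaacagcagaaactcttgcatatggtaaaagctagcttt

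Between the knockout-labelled and the wild-type-labelled testes on chow, none of the 48 member probes passed the test, and most lay close to each other in the 2 groups. The lowest p belonged to Gsta3, a class alpha glutathione transferase that read lower in knockout-labelled testes, followed by the transferase Gstt1, lower, and thioredoxin, Txn1, higher. The test was limma's moderated test with Benjamini-Hochberg adjustment over all 16015 probes tested, at a threshold of 0.05, and the lowest adjusted p of a member was 0.44. Over all probes 2 passed (0.0125%). At an unadjusted p under 0.05 there were 4 member probes of 48, with 8.99% of all probes below that limit. The 2 groups did not overlap for 11 member probes that read higher and 13 that read lower in knockout-labelled testes, with 22.6% and 21.1% over all probes. The median log2 difference was 0.0067 over the members, 26 above and 22 below 0, and 0.0052 over all probes. As whole testes were measured, fewer cells of a type and less RNA per cell cannot be told apart.

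Between ezetimibe-fed and chow-fed knockout-labelled testes, again no member passed. The secreted peroxidase Gpx3 had the lowest p and read lower with ezetimibe. Of all probes 0 passed (0%) in limma's test, and the lowest adjusted p of a member was 0.49. At an unadjusted p under 0.05 there were 2 member probes, with 5.76% of all probes. The groups did not overlap for 5 members that read higher and 12 that read lower with ezetimibe, with 19.1% and 19.7% over all probes. The member median was -0.0046, with 23 above and 25 below 0, and the median over all probes was 0.00091.

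Between ezetimibe-fed knockout-labelled and wild-type-labelled testes no member passed either, and Txn1, higher, Gpx3, lower, and Gsta3, lower, had the lowest p. The lowest adjusted p of a member was 0.53, while 2 of all probes passed (0.0125%). Unadjusted, 5 members lay under 0.05, with 7.24% of all probes. The groups did not overlap for 9 members higher and 14 lower in ezetimibe-fed knockout-labelled testes, with 18.6% and 18.2% over all probes. The member median was -0.029, with 18 above and 30 below 0, against 0.0042 over all probes. The 3 comparisons share arrays with each other, so their values are not independent.

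No member differed by more than 1 on the log2 scale in any of the 3 comparisons. Of all 16015 probes tested, 607 did in knockout-labelled against wild-type-labelled testes. With against without ezetimibe 401 did, and 563 did in ezetimibe-fed knockout-labelled against wild-type-labelled testes. The 95% interval of the difference lay wholly between -1 and 1, that is between a halving and a doubling, for 39 of 48 member probes in knockout-labelled against wild-type-labelled testes, for 43 with against without ezetimibe, and for 39 in ezetimibe-fed knockout-labelled against wild-type-labelled testes. Of all 16015 probes tested, the interval lay within these limits for 12647, 12898 and 12682 in the same order of comparisons. The SE of a difference had a median of 0.12 over the members and 0.14 over all probes tested. With 2 arrays a group the smallest p of an exact permutation test is 0.333, so none was run.

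**Figure D2:**
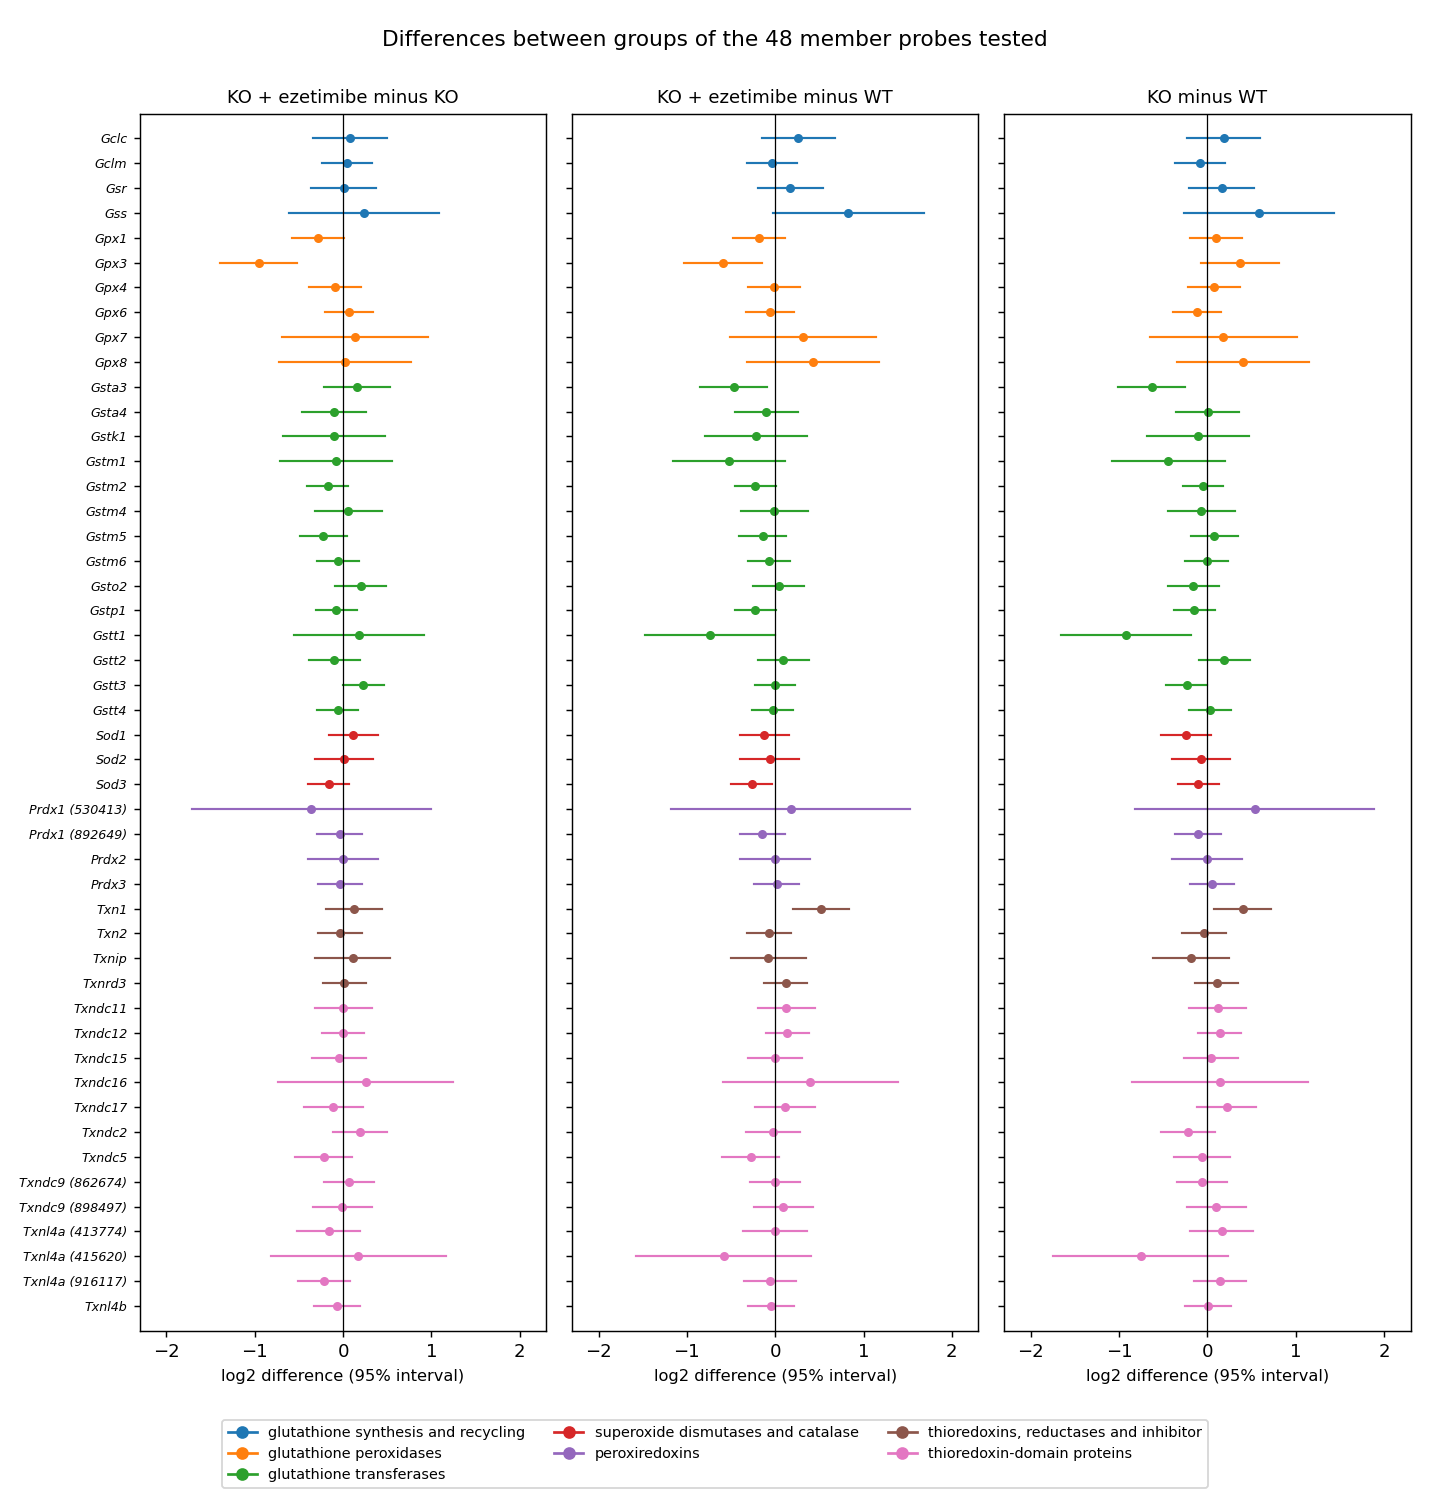
Log2 differences of the 48 member probes tested (points) with 95% intervals from limma (lines) in the 3 comparisons, coloured by role. Most points lie near 0. Among those farther out is Gpx3, at -0.96 with against without ezetimibe. In knockout-labelled against wild-type-labelled testes they include Gstt1 at -0.92, Txnl4a probe 415620 at -0.75 and Gsta3 at -0.63. In ezetimibe-fed knockout-labelled against wild-type-labelled testes they include Gss at 0.83 and Gstt1 at -0.74. None passed the adjusted threshold.

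Markers of other testis cells, from lists chosen with earlier results of these data known, are set beside these values because several lay lower with ezetimibe. None of their genes passed in any comparison. With against without ezetimibe in knockout-labelled testes, 11 of 11 Sertoli cell markers were below 0, with a median log2 difference of -0.20. So were 8 of 9 Leydig cell (-0.28), 9 of 10 macrophage (-0.37) and 8 of 8 fibroblast and matrix markers (-0.44). The same held for 5 of 6 endothelium markers (-0.32) and 3 of 3 erythroid markers (-0.44, range -2.43 to -0.076). Other lists lay closer to 0, with 5 of 8 spermatogonia (-0.093), 4 of 8 round spermatid (-0.0013), 3 of 4 peritubular myoid (-0.089) and 2 of 4 epididymis markers (-0.049) below 0. Over all probes 49.8% were below 0. The summed normalised signal of the Leydig cell list was 106865 to 110532 on the ezetimibe arrays, 126518 to 128238 on the knockout-labelled arrays and 116185 to 124217 on the wild-type-labelled arrays. That of the fibroblast and matrix list was 88655 to 99991 with ezetimibe, 120005 to 150595 in knockout-labelled and 102544 to 114506 in wild-type-labelled testes, and 8 of 8 of its genes were above 0 in knockout-labelled against wild-type-labelled testes, with a median of 0.56. The macrophage list summed to 223338 to 239023 with ezetimibe, 257746 to 258682 in knockout-labelled and 246208 to 251554 in wild-type-labelled testes. For erythroid genes the sums were 121563 to 134096 with ezetimibe, 242527 to 417197 in knockout-labelled and 152953 to 156205 in wild-type-labelled testes. Spermatocyte markers had medians of -0.039 with against without ezetimibe and -0.0057 in knockout-labelled against wild-type-labelled testes. With each array scaled to its own median these were -0.087 and 0.077, and the medians over all probes were then -0.050 and 0.11. Elongating spermatid markers had medians of 0.052 and -0.20 in those comparisons, with 4 of 13 and 11 of 13 below 0, and with median scaling -0.015 and -0.14, with 7 of 13 and 12 of 13 below 0. Their summed signal was 6.40e+06 and 6.23e+06 with ezetimibe, 6.32e+06 and 6.22e+06 in knockout-labelled, and 5.79e+06 and 8.32e+06 in wild-type-labelled testes, so that only wild-type-labelled replicate 2 was high. On the array but detected nowhere were Amh and Gata4 of the Sertoli list, Adgre1 of the macrophage list, Pdgfra of the fibroblast list, Tie1 of the endothelium list and Epb42 of the erythroid list. Nanos3 of the spermatogonia list was likewise detected nowhere. The part of these cell types in the values of the members was not tested.

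The 4 enzymes that make and recycle glutathione were detected on all 6 arrays. Gclc, the catalytic subunit of glutamate-cysteine ligase, which sets the pace of synthesis, had normalised log2 signals of 11.35 and 11.45 in ezetimibe-fed knockout-labelled testes, 11.31 and 11.34 in knockout-labelled testes, and 11.34 and 10.93 in wild-type-labelled testes. Only wild-type-labelled replicate 2 stood away from the others. Gclm, its modifier subunit, read 15.05 and 15.21 in ezetimibe-fed knockout-labelled, 15.12 and 15.05 in knockout-labelled, and 15.23 and 15.11 in wild-type-labelled testes. Gsr, the reductase that returns oxidised glutathione to its reduced form, read 11.83 and 11.67 in ezetimibe-fed knockout-labelled, 11.74 and 11.75 in knockout-labelled, and 11.42 and 11.74 in wild-type-labelled testes. For both Gclm and Gsr the ranges of the 3 groups overlapped. Differences of Gclc, Gclm and Gsr from one group to another lay between -0.08 and 0.26, with adjusted p of 0.68 to 0.996.

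Gss, glutathione synthetase, which adds the glycine, had signals of 9.89 and 10.41 in ezetimibe-fed knockout-labelled testes, 9.91 and 9.91 in knockout-labelled testes, and 9.75 and 8.90 in wild-type-labelled testes. All 4 knockout-labelled arrays were above both wild-type-labelled arrays, with the lowest value on wild-type-labelled replicate 2. The probe was dim, with a signal-to-noise of 3.98 to 12.3, lowest on that same array. The difference of ezetimibe-fed knockout-labelled from wild-type-labelled testes was 0.83 (SE 0.33, 95% interval -0.02 to 1.68, adjusted p 0.70). Without wild-type-labelled replicate 2 it was 0.41, and without replicate 1 it was 1.24. For knockout-labelled against wild-type-labelled testes it was 0.59 (SE 0.33, adjusted p 0.58), or 0.17 without wild-type-labelled replicate 2 and 1.0 without replicate 1.

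Among the peroxidases, 6 of 8 were tested. Gpx3 is secreted and is the main peroxidase of plasma; the kidney makes most of it. Its signals were 9.86 and 9.69 in ezetimibe-fed knockout-labelled testes, 10.68 and 10.77 in knockout-labelled testes, and 10.57 and 10.15 in wild-type-labelled testes. The ezetimibe arrays were lowest, the knockout-labelled arrays highest, and none of the 3 groups overlapped. Between the groups with and without ezetimibe the log2 difference was -0.96 (SE 0.17, 95% interval -1.40 to -0.52, adjusted p 0.49), a ratio of 0.515. Ezetimibe-fed knockout-labelled against wild-type-labelled testes differed by -0.59 (SE 0.17, adjusted p 0.62), or -0.38 without wild-type-labelled replicate 1 and -0.80 without replicate 2. Knockout-labelled against wild-type-labelled testes differed by 0.37 (SE 0.17, 95% interval -0.07 to 0.81, adjusted p 0.56). That last value was 0.16 without wild-type-labelled replicate 2 and 0.58 without replicate 1. Leaving out any array kept the difference with ezetimibe between -1.04 and -0.88. The probe was dim: its signal-to-noise was 2.80 and 4.02 with ezetimibe, 6.50 and 10.3 in knockout-labelled, and 13.6 and 3.48 in wild-type-labelled testes, so that 1 ezetimibe array did not detect it.

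Gpx4, which reduces lipid peroxides in membranes and is built into sperm, read 19.64 and 19.49 with ezetimibe, 19.74 and 19.57 in knockout-labelled, and 19.54 and 19.61 in wild-type-labelled testes. The groups overlapped in every comparison, and the difference was -0.09 with against without ezetimibe (95% interval -0.38 to 0.21) and 0.08 in knockout-labelled against wild-type-labelled testes (-0.22 to 0.37). Gpx1, the common cytosolic enzyme, had signals of 13.16 and 13.21 in ezetimibe-fed knockout-labelled testes, 13.56 and 13.37 in knockout-labelled testes, and 13.42 and 13.31 in wild-type-labelled testes. Both ezetimibe arrays were below the other 4. The difference was -0.28 with against without ezetimibe (SE 0.11, 95% interval -0.57 to 0.01, adjusted p 0.88), or -0.18 without knockout-labelled replicate 1. Gpx6, Gpx7 and Gpx8 had differences of -0.12 to 0.43 over the 3 comparisons, the largest for Gpx8, a peroxidase of the endoplasmic reticulum, whose interval in ezetimibe-fed knockout-labelled against wild-type-labelled testes ran from -0.32 to 1.17.

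**Figure D3:**
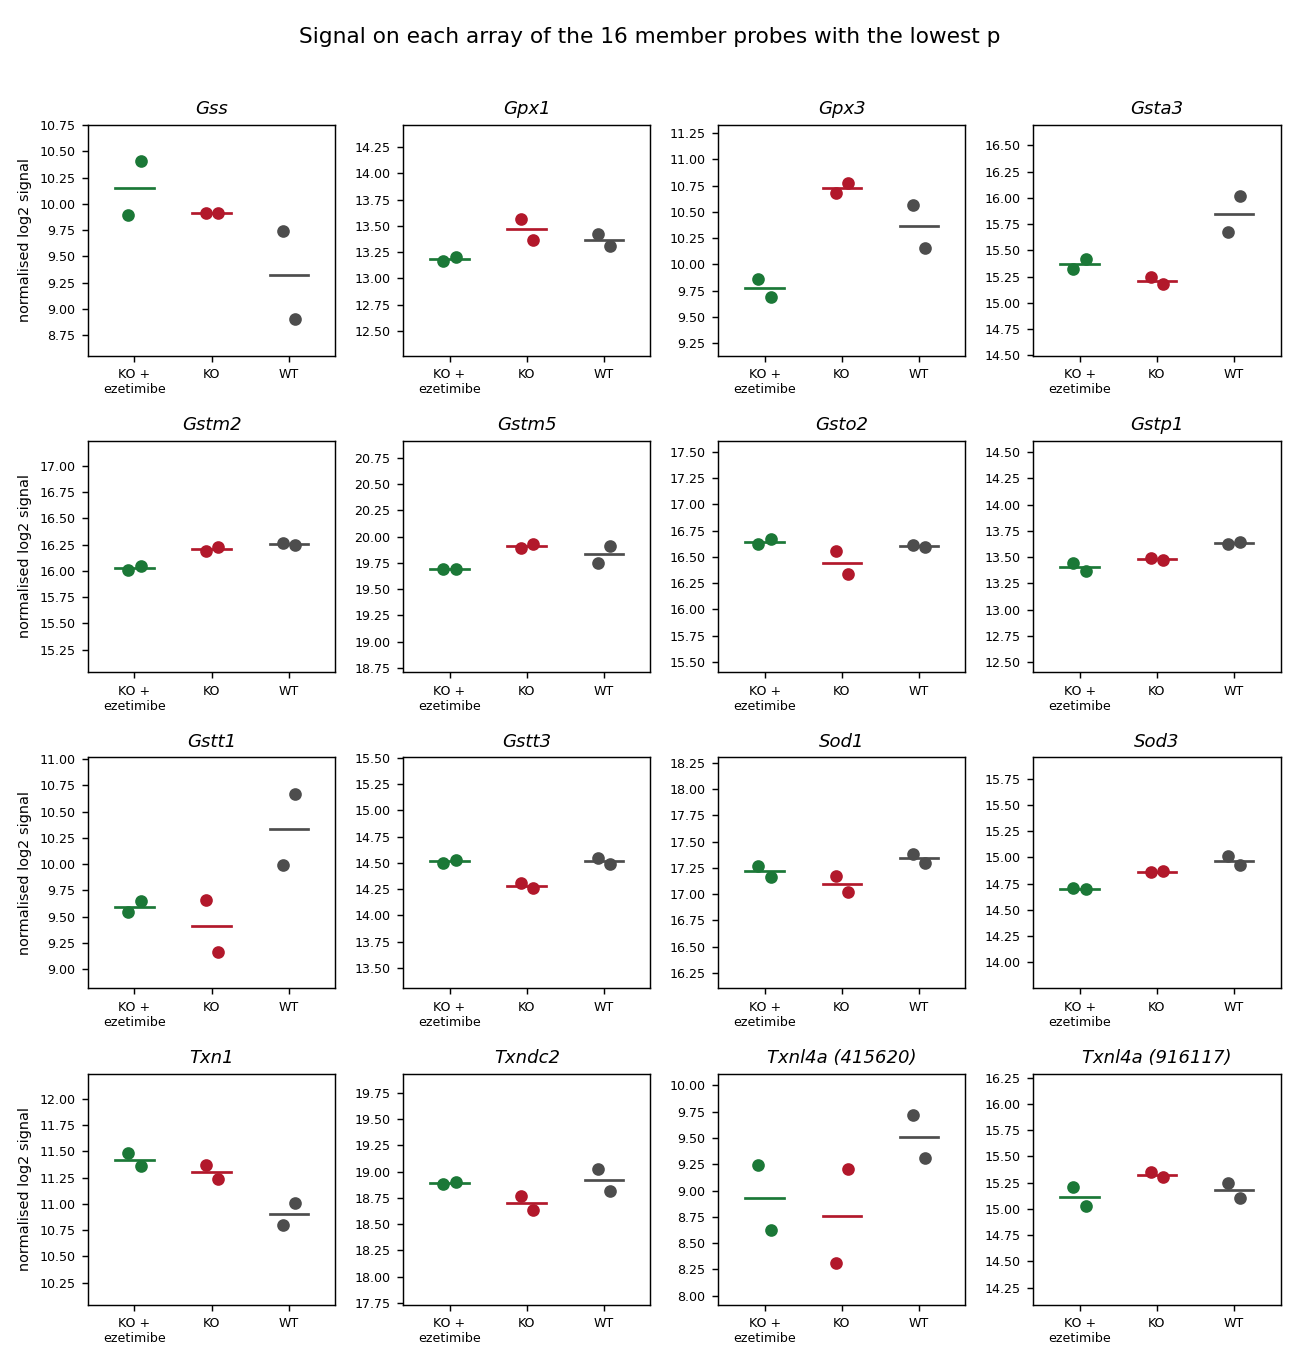
Normalised log2 signal of 16 member probes, those with the 8 lowest p in any comparison, on each array (points; the vertical axes differ in position but span the same range), with the mean of each group of 2 as a line. Groups run from ezetimibe-fed knockout-labelled to knockout-labelled to wild-type-labelled. Gpx3 is lowest on the ezetimibe arrays (9.86 and 9.69), and Gsta3 and Gstt1 are highest on the wild-type-labelled arrays.

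The glutathione transferases were the largest role, with 14 of 15 probes tested. Gstm1, Gstm2, Gstm4, Gstm5 and Gstm6 lie on chromosome 3, Gstt1, Gstt2, Gstt3 and Gstt4 on chromosome 10, and Gstp1, Gstp3 and Gsto2 on chromosome 19. Genes of 1 class are related in sequence, and how far a probe also reads its relatives was not tested. In ezetimibe-fed knockout-labelled against wild-type-labelled testes 12 of 14 differences were below 0, with a median of -0.12. Of the 14, 9 were below 0 with against without ezetimibe (median -0.067), and in knockout-labelled against wild-type-labelled testes 10 of 14 were (median -0.089). Over all probes 48.9%, 49.8% and 49.1% were below 0 in the same order of comparisons. These counts depend on the scaling of the arrays. With each array scaled to its own median, 9, 9 and 7 of 14 transferases were below 0 in that order. Their medians were then -0.095, -0.12 and 0.0040, and the medians over all probes 0.058, -0.050 and 0.11. Measured from the median over all probes, the transferase medians were -0.13, -0.068 and -0.094 under quantile normalisation. With median scaling they were -0.15, -0.068 and -0.11 on that measure.

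Gsta3, whose human counterpart also isomerises steroid intermediates, had signals of 15.33 and 15.42 in ezetimibe-fed knockout-labelled testes, 15.25 and 15.18 in knockout-labelled testes, and 15.67 and 16.02 in wild-type-labelled testes. All 4 knockout-labelled arrays were below both wild-type-labelled arrays. The difference was -0.63 in knockout-labelled against wild-type-labelled testes (SE 0.14, 95% interval -1.01 to -0.26, adjusted p 0.44), a ratio of 0.645, and -0.47 in ezetimibe-fed knockout-labelled against wild-type-labelled testes (SE 0.14, adjusted p 0.64). Without wild-type-labelled replicate 2 these were -0.46 and -0.30, and without replicate 1 they were -0.80 and -0.64. With against without ezetimibe it was 0.16 (95% interval -0.21 to 0.54). Its signal-to-noise was 72.7 to 101 on the 6 arrays.

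Gstt1, a class theta transferase that acts on small halogenated compounds, had signals of 9.54 and 9.65 in ezetimibe-fed knockout-labelled testes, 9.66 and 9.16 in knockout-labelled testes, and 9.99 and 10.67 in wild-type-labelled testes. Again both wild-type-labelled arrays were above the other 4, replicate 2 by the most. The difference was -0.92 in knockout-labelled against wild-type-labelled testes (SE 0.28, 95% interval -1.66 to -0.19, adjusted p 0.51) and -0.74 in ezetimibe-fed knockout-labelled against wild-type-labelled testes (SE 0.28, adjusted p 0.69). Without wild-type-labelled replicate 2 they were -0.59 and -0.41, and without replicate 1 they were -1.26 and -1.08. The probe was dim, with a signal-to-noise of 2.42 to 5.86.

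Gstt3, its neighbour on the chromosome, read 14.50 and 14.53 with ezetimibe, 14.30 and 14.26 in knockout-labelled, and 14.54 and 14.49 in wild-type-labelled testes. The knockout-labelled arrays were below the other 4. The difference was 0.23 with against without ezetimibe (SE 0.09, adjusted p 0.87) and -0.23 in knockout-labelled against wild-type-labelled testes (SE 0.09, adjusted p 0.54); both rest on the same 2 knockout-labelled arrays. With median scaling they were 0.18 and -0.11, where the medians over all probes were -0.050 and 0.11. Gsto2, a class omega enzyme that reduces dehydroascorbate, read 16.62 and 16.67 with ezetimibe, 16.55 and 16.34 in knockout-labelled, and 16.62 and 16.60 in wild-type-labelled testes. Its difference with against without ezetimibe was 0.20 (SE 0.11, 95% interval -0.09 to 0.49, adjusted p 0.91), or 0.31 without knockout-labelled replicate 1 and 0.09 without replicate 2.

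The class mu transferase Gstm5, found mainly in brain and testis, had signals of 19.69 and 19.69 in ezetimibe-fed knockout-labelled testes, 19.89 and 19.93 in knockout-labelled testes, and 19.75 and 19.91 in wild-type-labelled testes. The equal Gstm5 values with ezetimibe are a tie made by quantile normalisation, as the raw intensities were 996910 and 905507. Gstm2 read 16.01 and 16.05 with ezetimibe, 16.19 and 16.22 in knockout-labelled, and 16.26 and 16.24 in wild-type-labelled testes. For both, the ezetimibe arrays were the lowest of the 6. With against without ezetimibe Gstm5 differed by -0.22 (SE 0.10, adjusted p 0.89) and Gstm2 by -0.18 (SE 0.09, adjusted p 0.91), and Gstm2 in ezetimibe-fed knockout-labelled against wild-type-labelled testes by -0.22 (adjusted p 0.69). The class pi transferase Gstp1 read 13.45 and 13.37 with ezetimibe, 13.50 and 13.48 in knockout-labelled, and 13.63 and 13.64 in wild-type-labelled testes, which gave -0.22 in ezetimibe-fed knockout-labelled against wild-type-labelled testes (SE 0.09, 95% interval -0.46 to 0.01, adjusted p 0.70). The 7 other transferases tested had differences of -0.52 to 0.19, of which Gstm1 was the lowest, in ezetimibe-fed knockout-labelled against wild-type-labelled testes (95% interval -1.16 to 0.11); it was -0.24 without wild-type-labelled replicate 2 and -0.81 without replicate 1.

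The superoxide dismutases, which turn superoxide into hydrogen peroxide, were detected on all 6 arrays. Cytosolic Sod1 had signals of 17.27 and 17.16 in ezetimibe-fed knockout-labelled testes, 17.17 and 17.02 in knockout-labelled testes, and 17.38 and 17.30 in wild-type-labelled testes. Extracellular Sod3 read 14.71 and 14.70 with ezetimibe, 14.86 and 14.87 in knockout-labelled, and 15.01 and 14.93 in wild-type-labelled testes. For Sod1 and Sod3 all 4 knockout-labelled arrays were below the wild-type-labelled ones, and for Sod3 the ezetimibe arrays were also below the knockout-labelled ones. Sod1 differed by -0.24 in knockout-labelled against wild-type-labelled testes (SE 0.11, 95% interval -0.52 to 0.04, adjusted p 0.56), or -0.15 with median scaling. Sod3 differed by -0.27 in ezetimibe-fed knockout-labelled against wild-type-labelled testes (SE 0.09, 95% interval -0.50 to -0.03, adjusted p 0.65) and by -0.16 with against without ezetimibe (SE 0.09, adjusted p 0.91). Mitochondrial Sod2 read 16.28 and 16.38 with ezetimibe, 16.45 and 16.19 in knockout-labelled, and 16.34 and 16.43 in wild-type-labelled testes, so its groups overlapped throughout. With each array scaled to its own median, 2 of these 3 genes were above 0 in knockout-labelled against wild-type-labelled testes, with 3 of 3 below 0 under quantile normalisation. The median over all probes was 0.11 with median scaling. Measured from the median over all probes, the median of the 3 genes was -0.099 with median scaling and -0.11 under quantile normalisation.

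Peroxiredoxins take electrons from thioredoxin to reduce peroxides. Of the 2 Prdx1 probes, 892649 read 16.19 and 16.23 in ezetimibe-fed knockout-labelled, 16.27 and 16.23 in knockout-labelled, and 16.28 and 16.43 in wild-type-labelled testes. Probe 530413 of the same gene read 9.05 and 10.36 with ezetimibe, 10.52 and 9.61 in knockout-labelled, and 9.67 and 9.39 in wild-type-labelled testes, so that replicates differed by more than the groups. The 2 probes disagreed in sign in knockout-labelled against wild-type-labelled testes, at -0.11 (95% interval -0.36 to 0.15) and 0.54 (-0.82 to 1.89). Probe 530413 was dim, with a signal-to-noise of 2.98 to 23.4, against 70.6 to 90.8 for probe 892649. Prdx2, the other cytosolic enzyme, read 12.57 and 12.90 with ezetimibe, 12.62 and 12.85 in knockout-labelled, and 12.73 and 12.74 in wild-type-labelled testes. Mitochondrial Prdx3 had differences of -0.03 to 0.05 over the 3 comparisons, and its intervals lay between -0.29 and 0.30.

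Of the thioredoxin system, Txn1, the cytosolic thioredoxin, had signals of 11.48 and 11.36 in ezetimibe-fed knockout-labelled testes, 11.37 and 11.24 in knockout-labelled testes, and 10.80 and 11.01 in wild-type-labelled testes. All 4 knockout-labelled arrays were above both wild-type-labelled arrays. The difference from wild-type-labelled testes was 0.52 with ezetimibe (SE 0.12, 95% interval 0.20 to 0.84, adjusted p 0.53), a ratio of 1.43, and 0.40 without it (SE 0.12, 95% interval 0.08 to 0.72, adjusted p 0.51), a ratio of 1.32. These values were 0.62 and 0.50 without wild-type-labelled replicate 2, and 0.42 and 0.29 without replicate 1. Txn1 differed by 0.12 with against without ezetimibe (95% interval -0.20 to 0.44).

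Txn2, the mitochondrial thioredoxin, read 14.19 and 14.17 with ezetimibe, 14.21 and 14.22 in knockout-labelled, and 14.19 and 14.32 in wild-type-labelled testes. Txnrd3 read 16.12 and 16.12 with ezetimibe, 16.06 and 16.15 in knockout-labelled, and 15.96 and 16.03 in wild-type-labelled testes. The knockout-labelled groups stood above the wild-type-labelled one by 0.12 with ezetimibe and 0.11 without (95% intervals -0.12 to 0.36 and -0.14 to 0.35). Txnip, which binds and inhibits thioredoxin, was dim, with signals of 9.24 and 9.49 in ezetimibe-fed knockout-labelled, 9.09 and 9.42 in knockout-labelled, and 9.36 and 9.52 in wild-type-labelled testes. The groups overlapped for Txnip in all 3 comparisons.

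The 13 probes for proteins with a thioredoxin domain or name had medians of -0.0019 in ezetimibe-fed knockout-labelled against wild-type-labelled testes, -0.0091 with against without ezetimibe and 0.10 in knockout-labelled against wild-type-labelled testes. Without wild-type-labelled replicate 2 the first was -0.065 and the last -0.030, so the last changed sign. With each array scaled to its own median they were 0.057 and 0.16, where the medians over all probes were 0.058 and 0.11. That scaling shifted all probes, so it did not settle the sign of either. Txndc2, the thioredoxin of elongating spermatids, had signals of 18.88 and 18.90 with ezetimibe, 18.76 and 18.63 in knockout-labelled, and 19.03 and 18.81 in wild-type-labelled testes. The knockout-labelled arrays were the lowest of the 6, and the difference from wild-type-labelled testes was -0.22 (SE 0.12, 95% interval -0.53 to 0.08, adjusted p 0.58). It was -0.12 without wild-type-labelled replicate 1 and -0.33 without replicate 2. The summed signal of elongating spermatid markers was high on wild-type-labelled replicate 2, while Txndc2 was highest on replicate 1; the part of these cells in the value was not tested.

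Txnl4a encodes a small protein of the spliceosome with a thioredoxin fold, and its 3 probes disagreed. Probe 916117 read 15.20 and 15.03 with ezetimibe, 15.35 and 15.30 in knockout-labelled, and 15.25 and 15.10 in wild-type-labelled testes, a difference of -0.21 with against without ezetimibe (SE 0.11, adjusted p 0.91), or -0.12 without ezetimibe replicate 2. Probe 415620 read 9.24 and 8.62 with ezetimibe, 8.31 and 9.21 in knockout-labelled, and 9.72 and 9.31 in wild-type-labelled testes, a difference of -0.75 in knockout-labelled against wild-type-labelled testes (SE 0.38, 95% interval -1.74 to 0.24, adjusted p 0.57). Without single arrays that value ran from -1.19, without knockout-labelled replicate 2, to -0.30, without replicate 1. In that comparison probes 916117 and 413774 stood at 0.15 and 0.16, of the opposite sign. Probe 415620 was dim, with a signal-to-noise of 3 and 2.74 on the knockout-labelled arrays. Txndc5, a disulfide isomerase of the endoplasmic reticulum, differed by -0.28 in ezetimibe-fed knockout-labelled against wild-type-labelled testes (95% interval -0.60 to 0.04), and Txndc17, a cytosolic relative of thioredoxin, by 0.22 in knockout-labelled against wild-type-labelled testes (-0.12 to 0.56). Txndc17 stood at 0.11 without wild-type-labelled replicate 2 and at 0.33 without replicate 1. The 2 Txndc9 probes differed by -0.06 and 0.10 in that comparison.

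Other genes of the same pathways were read from lists chosen with earlier results of these data known, and none passed in any comparison. Of 17 NFE2L2 pathway genes on the array 14 were tested. Below 0 were 10 of them in ezetimibe-fed knockout-labelled against wild-type-labelled testes, 9 with against without ezetimibe and 8 in knockout-labelled against wild-type-labelled testes. Their medians were -0.14, -0.068 and -0.049. With each array scaled to its own median the last was 0.065, with 6 of 14 below 0 and a median over all probes of 0.11. Over all probes 48.9%, 49.8% and 49.1% were below 0 in the same order of comparisons. At an unadjusted p under 0.05 in limma's test there were 1, 0 and 1 of the 14 genes in the same order, with 7.24%, 5.76% and 8.99% of all probes. Maff, a small partner protein of NFE2L2, read 11.35 and 11.37 with ezetimibe, 11.16 and 11.46 in knockout-labelled, and 11.91 and 11.73 in wild-type-labelled testes, which gave -0.51 in knockout-labelled against wild-type-labelled testes (SE 0.14, adjusted p 0.49). Ftl1, the light chain of the iron store ferritin, read 17.18 and 17.38 with ezetimibe, 17.61 and 17.57 in knockout-labelled, and 17.53 and 17.32 in wild-type-labelled testes, a difference of -0.31 with against without ezetimibe (SE 0.13, adjusted p 0.88). Blvrb, a biliverdin reductase, differed by -0.25 in knockout-labelled against wild-type-labelled testes (SE 0.12, adjusted p 0.57).

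Of 19 further glutathione genes on the array 14 were tested. Their medians were 0.0094, -0.023 and 0.048 in the same order of comparisons (0.062, -0.075 and 0.15 with median scaling, against 0.058, -0.050 and 0.11 over all probes). An unadjusted p under 0.05 in limma's test was reached by 0, 1 and 1 of them, with 7.24%, 5.76% and 8.99% of all probes. Glo1, which with glutathione clears methylglyoxal, had signals of 11.72 and 11.83 with ezetimibe, 11.33 and 11.56 in knockout-labelled, and 11.89 and 11.80 in wild-type-labelled testes. Both knockout-labelled arrays on chow were below the other 4, with differences of 0.33 with against without ezetimibe (SE 0.12, adjusted p 0.84) and -0.40 in knockout-labelled against wild-type-labelled testes (SE 0.12, adjusted p 0.51). Slc3a2, the heavy chain of the cystine importer, differed by -0.38 in knockout-labelled against wild-type-labelled testes (SE 0.16, adjusted p 0.55), and Chac2, a glutathione-degrading enzyme, by 0.18 in ezetimibe-fed knockout-labelled against wild-type-labelled testes (SE 0.12, adjusted p 0.79). Selenocysteine is the active residue of Gpx1, Gpx3, Gpx4 and the thioredoxin reductases, and 11 of 12 genes for selenoproteins and their synthesis on the array were tested. Their medians were -0.010 in ezetimibe-fed knockout-labelled against wild-type-labelled testes, 0.0066 with against without ezetimibe and -0.13 in knockout-labelled against wild-type-labelled testes. In the same order 1, 0 and 0 of them had an unadjusted p under 0.05 in limma's test, with 7.24%, 5.76% and 8.99% of all probes. With median scaling the medians were 0.042, -0.059 and -0.019, against 0.058, -0.050 and 0.11 over all probes. Selenop, the selenium carrier, read 14.86 and 15.04 with ezetimibe, 15.13 and 15.12 in knockout-labelled, and 15.27 and 15.24 in wild-type-labelled testes, a difference of -0.30 in ezetimibe-fed knockout-labelled against wild-type-labelled testes (SE 0.10, adjusted p 0.65). Scly, which frees selenium from selenocysteine, differed by -0.37 with against without ezetimibe (SE 0.18, adjusted p 0.89), and Selenov, a selenoprotein found in testis, by -0.19 in knockout-labelled against wild-type-labelled testes (SE 0.10, adjusted p 0.57).

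**Figure D4:**
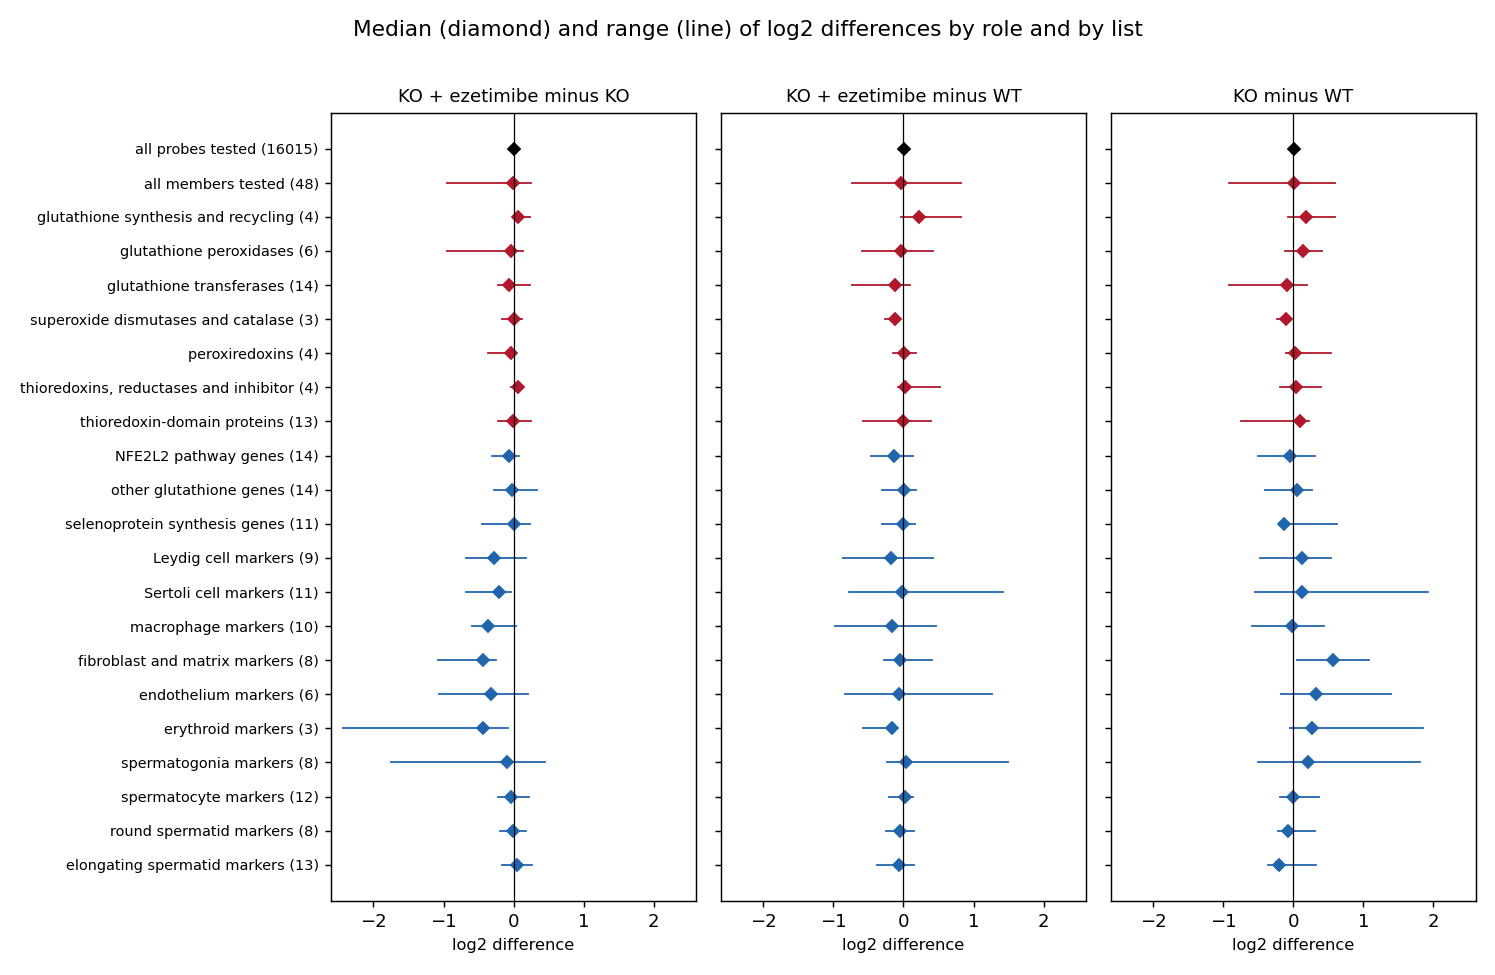
Median (diamond) and lowest-to-highest range (line) of log2 differences over the probes tested, for all members and each role (red) and for some of the gene lists (blue). The 3 comparisons are shown, with the number tested in brackets. The black diamond is the median over all 16015 probes. Role medians lie between -0.12 and 0.22, while the fibroblast and matrix list lies at 0.56 in knockout-labelled against wild-type-labelled testes and at -0.44 with against without ezetimibe.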

How the data were processed

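Per the labels' protocols, digoxigenin-labelled cRNA of 6 testes was put on 1-colour arrays, 1 per mouse. Per the file headers, the deposited raw table gives each probe's intensity on each array, with its signal-to-noise as a score; scanner and software are not named in the labels or headers. The authors also deposited processed intensities, each array divided by about its median, used as an alternative. The tables held 0 other per-sample columns. The deposited intensities, with no further background correction, were turned into log2 values and quantile-normalised with limma 3.58.1 in R 4.3.3.

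Probes that some group detected on both its arrays, at a signal-to-noise of at least 3, were fitted together, 16015 of 33012, with 1 mean per group and 1 shared spread over 6 arrays (lmFit and eBayes; Benjamini-Hochberg over all probes tested, threshold 0.05). The labels give no batch, slide, scan date or pairing, so none was tested; precision is limited by the number of arrays. The fit was tested on simulated data. Symbols came from the platform annotation, with 247 probes naming several genes and 18354 none, and identifiers and windows from RefSeq GRCm38.p6. For the gene lists the brightest tested probe stood for a gene.

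The members and lists were chosen with earlier results of these data known. Values per array are given for the 8 member probes with the lowest p in each comparison and for core enzymes; other members by range; and from each pathway list the 3 genes with the lowest p. Gpx6, Gpx7, Gpx8, Gstm1, Prdx3, Txndc5, Txndc9 and Txndc17 were named after their values were seen. Alternatives were scaling each array to its median, using the authors' processed table, a normexp correction with an offset of 50, other limits on dim probes, an intensity trend or robust prior, array weights, fits to 4 arrays, each array left out and, chosen after seeing the data, both knockout-labelled groups set together.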

Additional observations from a re-analysis of the deposited data

How the results depend on the processing

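No member passed in any comparison under any of the 17 alternatives for knockout-labelled against wild-type-labelled testes or the 16 for each of the others; the lowest adjusted p of a member was 0.061, for Gsta3 with an intensity trend in the prior variance. That setting called 17 probes higher and 14 lower among all probes in knockout-labelled against wild-type-labelled testes, 0 and 14 with against without ezetimibe, and 12 and 14 in ezetimibe-fed knockout-labelled against wild-type-labelled testes, while 0 passed in the 3 comparisons with no filter on dim probes. With 1 of the 2 arrays of a group left out, the remaining one is assumed to vary like the other groups. The member median in knockout-labelled against wild-type-labelled testes was 0.11 with median scaling and with the authors' processed values, where the median over all probes was 0.11 too, and -0.034 with both knockout-labelled groups set together; leaving out single arrays gave -0.015 to 0.026. With against without ezetimibe the member median was -0.063 with median scaling and -0.064 with the authors' values. The medians over all probes were then -0.050 and -0.051. Without single arrays the member median was -0.031 to -0.0036. In ezetimibe-fed knockout-labelled against wild-type-labelled testes it was 0.0078 with median scaling and 0.0074 with the authors' values. The median over all probes was 0.058 under each of these scalings. The member median was -0.041 with no filter, and -0.033 to -0.015 without single arrays. Of 386 values of the genes with the lowest p under an alternative, 385 kept their sign. Other limits on dim probes, the trend and robust priors and the array weights leave the difference itself unchanged. Signs under these alternatives were thus fixed in advance, and the count does not measure how stable the genes are. Gpx3 turned to -0.11 (adjusted p 0.80) with both knockout-labelled groups set together, which averages the lower ezetimibe arrays with the higher ones on chow. No paired analysis was possible because the labels of the knockout groups carry no replicate numbers shared with other groups.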

Other observations

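Enzymes that make superoxide or hydrogen peroxide were read from a list of 16 genes on the array, of which 6 were tested and none passed. Cyba, the membrane subunit of the phagocyte NADPH oxidase, had normalised log2 signals of 11.97 and 12.10 in ezetimibe-fed knockout-labelled testes, 12.47 and 12.28 in knockout-labelled testes, and 12.51 and 12.60 in wild-type-labelled testes, and the 3 groups did not overlap. Its difference was -0.52 in ezetimibe-fed knockout-labelled against wild-type-labelled testes (SE 0.12, adjusted p 0.50) and -0.34 with against without ezetimibe (SE 0.12, adjusted p 0.82). Aox1, aldehyde oxidase, read 10.82 and 11.06 with ezetimibe, 11.22 and 11.21 in knockout-labelled, and 11.46 and 11.80 in wild-type-labelled testes, and differed by -0.69 in ezetimibe-fed knockout-labelled against wild-type-labelled testes (SE 0.16, 95% interval -1.1 to -0.29, adjusted p 0.51). Maoa, a mitochondrial amine oxidase, differed by -0.29 in that comparison (SE 0.14, adjusted p 0.74). Macrophage and Leydig cell markers lay lower in the same arrays, and their part in these values was not tested.

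The 6 genes of oxidised protein repair and related stress responses on the array were all tested, and none passed. In ezetimibe-fed knockout-labelled against wild-type-labelled testes 5 were above 0 (median 0.18). So were 5 in knockout-labelled against wild-type-labelled testes (0.27), and 3 with against without ezetimibe (-0.034). Over all probes 48.9%, 49.1% and 49.8% were below 0 in that order. Measured from each gene's mean over 6 arrays, the list averaged -0.36 for wild-type-labelled replicate 2 but 0.025 for replicate 1. Chow-fed knockout-labelled replicate 1 stood at -0.074 and replicate 2 at 0.26, with 0.044 and 0.11 under ezetimibe. How far the 2 positive medians rest on wild-type-labelled replicate 2 was not tested. Park7, a redox-sensitive protein that also protects sperm, read 16.06 and 16.05 with ezetimibe, 16.08 and 16.23 in knockout-labelled, and 16 and 15.58 in wild-type-labelled testes, a difference of 0.36 in knockout-labelled against wild-type-labelled testes (SE 0.16, 95% interval -0.07 to 0.79, adjusted p 0.56). Msrb2, a mitochondrial methionine sulfoxide reductase, differed by 0.19 and Sesn3, a sestrin, by -0.20 in that comparison (adjusted p 0.58 for each).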
